A study of Mus musculus with 2 samples.

Results

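The genes described here are 10 genes of planar cell polarity, the signalling that orients cells within the plane of a tissue. They were chosen by name, not by a rule on their values, though with earlier results of these data known. They are Vangl1, Vangl2, Celsr1, Celsr2, Celsr3, Ror1, Ror2, Prickle1, Prickle2 and Ptk7, of 43346 genes in the deposited tables. Total RNA came from the limb of B6NCrl mouse embryos of both sexes at embryonic day 11.5, and the labels name no treatment, no mutant allele and no other group. The 2 libraries are biological replicates of that 1 group, each a pool of embryos (109 for replicate 1 and 88 for replicate 2), so that no single embryo was measured. Each library was made from 10 ng of RNA over 200 nt long, with spike-in RNAs, and held 40.6 M expected counts on genes in replicate 1 and 32.3 M in replicate 2.

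In planar cell polarity, core membrane proteins sort to opposite faces of a cell and pass direction from neighbour to neighbour. Celsr cadherins bridge adjoining cells, Frizzled receptors with Dishevelled hold a given face, and Vangl proteins with Prickle hold the opposite face. In the growing limb, the secreted ligand Wnt5a acts through the receptor tyrosine kinase Ror2, and Vangl2 is phosphorylated in response. Mice without Wnt5a or Ror2 have short limbs and digits, and mutations of this pathway cause Robinow syndrome and brachydactyly in people.

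Markers of limb were detected in both libraries. Limb mesenchyme markers were detected for 8 of 8 genes, with a summed level of 620 TPM in replicate 1 and 634 TPM in replicate 2, and ectoderm and ridge markers for 9 of 9, with 216 and 220 TPM. TPM, a level scaled to a fixed total per library, divides reads by transcript length, so that levels of different genes can be compared, and a gene is called detected at 1 TPM or more in both libraries. The TPM total includes spike-ins, which took 11.8% of it in replicate 1 and 17.2% in replicate 2. This lowers the TPM of genes more in replicate 2, so near-equal sums do not show equal levels. Single markers are given on another scale, the log2 ratio of replicate 2 over replicate 1 from TMM-scaled counts, which leaves spike-ins out. Krt5 was at 0.44, Cdh1 at 0.38, Trp63 at 0.37 and Meis1 at 0.24, while Krt14 was at -0.12 and Fgf8 at -0.14. These ratios cannot be set against the sums. By the exact binomial test described below, 4 of the 9 ectoderm and ridge markers had an adjusted p of at most 0.05. So did 3 of the 8 mesenchyme markers, and all of these were higher in replicate 2. The share over all genes tested was 29.3%, and 19 of all 51 cell type markers reached that p. The erythroid (3 of 4), macrophage (2 of 4) and muscle (1 of 4) markers that did were all lower in replicate 2. Those of neurons (4 of 8) and endothelium (2 of 5) went both ways. The part of such shifts in the differences between libraries given here was not tested. Neuron markers were detected for 6 of 8 genes (50.9 and 51.1 TPM summed, with Elavl3 at 0.05 and 0.07 TPM), while spinal cord progenitor markers were detected for 0 of 5, at 0.20 and 0.38 TPM summed and with Olig2 at 0 in both. Other cell types were present too, with all markers detected for erythroid cells (7993 and 7069 TPM summed over 4 genes), endothelium (118 and 110 TPM over 5), muscle (121 and 107 TPM over 4) and macrophages (36.1 and 31.5 TPM over 4), and 3 of 4 for Schwann and neural crest cells (13.4 and 12.3 TPM). Which of these cells made the transcripts described here was not tested.

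All 10 genes had reads in both libraries, and their levels ran from abundant to scarcely measurable. At 1 TPM in both libraries 8 of the 10 were detected, and Celsr1 and Celsr3 were not. Over all 21474 protein-coding genes, 56.3% passed the same threshold. Spike-ins took 11.8% of TPM in replicate 1 and 17.2% in replicate 2. With TPM rescaled without them, Celsr1 was at 1.12 and 1.32 TPM, above that threshold. The median of the 10 mean levels was 9.24 TPM, beside 3.02 TPM over protein-coding genes. Together the 10 genes held 16137 counts in replicate 1 and 12454 in replicate 2, or 0.0397% and 0.0386% of all counts on genes. As the tissue was taken in bulk, few expressing cells and little RNA per cell cannot be told apart for any of them.

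**Figure D1:**
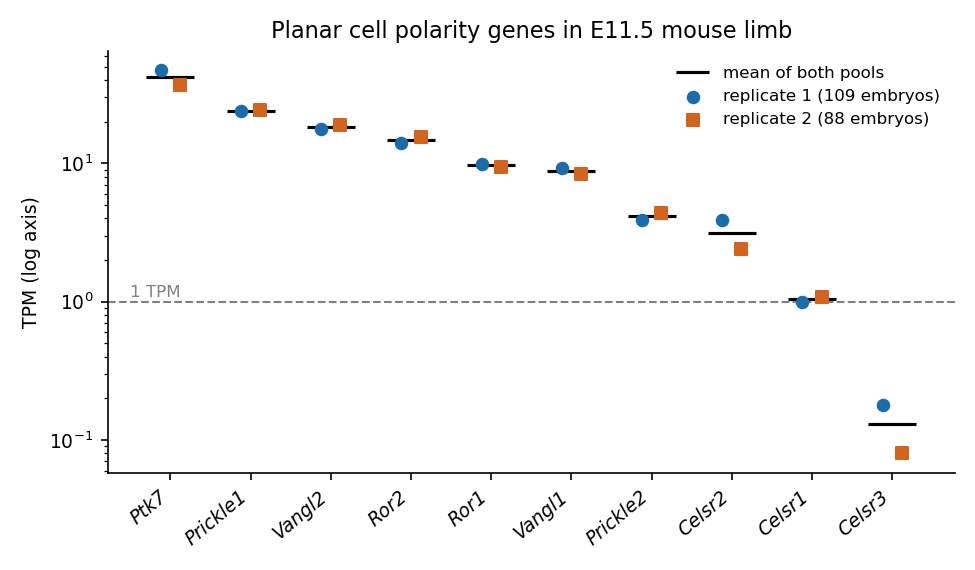
Level of each of the 10 genes in TPM (log axis), with circles for replicate 1, squares for replicate 2, a black line at their mean and a dashed line at 1 TPM. Ptk7 is highest with a mean of 42.2 TPM and Celsr3 lowest with 0.13 TPM, and the other 8 genes lie between 0.99 and 24.2 TPM.

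Vangl2 and Vangl1 encode paralogous membrane proteins that recruit Prickle to the cell edge. Vangl2 (ENSMUSG00000026556, chromosome 1, 172000960 to 172028444 on the minus strand of GRCm38) was at 17.8 TPM in replicate 1 and 19.0 TPM in replicate 2, a mean of 18.4 ± 0.813 (SD, n = 2). Vangl1 (ENSMUSG00000027860, chromosome 3, 102153583 to 102204693, minus strand) was at 9.20 and 8.34 TPM, a mean of 8.77 ± 0.608 (SD, n = 2). The levels of the pair did not overlap, and Vangl2 was 2.09-fold higher. On the log2(TPM + 0.1) scale this difference was 1.06 ± 0.16 (SD, n = 2). Pairs of genes are said to be set apart where the difference has the same sign in both libraries and exceeds the 95th percentile of between-library differences among genes of like level, which here was 0.47, so Vangl2 and Vangl1 were set apart.

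Vangl2 reads were assigned mainly to Vangl2-201, which held 86.2% of the gene's TPM in replicate 1 and 72.9% in replicate 2. Next stood Vangl2-203, with 4.96% and 13.8%. This transcript keeps a cassette exon of 120 nt, or 40 codons, at chr1:172008799-172008918 (GRCm38, minus strand), which lengthens the coding sequence from 1563 to 1683 nt. The exon is shown because it is the protein-level difference among the main Vangl2 transcripts. It is in capitals, with 15 nt of the joining exons in lower case, and its reading frame holds 0 stop codons.

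Vangl2-203 cassette exon: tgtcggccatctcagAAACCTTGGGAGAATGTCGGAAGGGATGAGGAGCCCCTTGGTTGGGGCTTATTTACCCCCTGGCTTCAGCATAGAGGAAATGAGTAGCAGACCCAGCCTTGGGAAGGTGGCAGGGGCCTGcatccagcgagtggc

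Of the 4 annotated Vangl2 transcripts that span this position, only Vangl2-203 keeps the exon. Inclusion by TPM was 5.39% in replicate 1 and 15.6% in replicate 2, a mean of 10.5% ± 7.23 (SD, n = 2). The assignment is loose. Vangl2-203 was given 56.0 and 137 counts, with a deposited posterior SD of 37.2 and 36.5 counts, and the bounds deposited for its TPM overlapped, at 0.0353 to 2.06 in replicate 1 and 0.765 to 3.53 in replicate 2. It also ends earlier than Vangl2-201 (2349 against 5698 nt), so its share does not rest on the exon's own reads alone. The change of 8.79 percentage points between libraries lay within the 95th percentile of 14.2 points for transcripts of like share in genes of 5 to 50 TPM, a reference chosen after seeing the data.

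Vangl1 was carried by Vangl1-202, with 83.7% and 89.0% of the gene's TPM, and 96.8% and 98.5% of its counts. Vangl1-201, whose coding sequence is longer in the newer annotation, GENCODE M21 (1578 against 1179 nt), was at 0 TPM in both libraries. Vangl1-202 is 3413 nt long as counted and 3207 nt in that annotation, so its coding length as counted is not known. The deposited tables give Vangl1-201 a length of 1744 nt, while the newer annotation gives 6531 nt, so reads from its later-annotated part would not have been assigned to it. Vangl1 also shares 8 exonic nt with Gm16160 on the opposite strand, which had 1 count in replicate 1 and 0 in replicate 2.

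Prickle1 and Prickle2 encode cytoplasmic LIM-domain proteins that bind Vangl. Prickle1 (ENSMUSG00000036158, chromosome 15, 93499114 to 93595891, minus strand) was at 23.8 and 24.2 TPM, a mean of 24.0 ± 0.311 (SD, n = 2). Prickle2 (ENSMUSG00000030020, chromosome 6, 92370908 to 92706155, minus strand) was at 3.91 and 4.38 TPM, a mean of 4.14 ± 0.332 (SD, n = 2). Prickle1 was 5.69-fold higher, a log2 difference of 2.51 ± 0.09 (SD, n = 2) against a yardstick of 0.74. On this log2(TPM + 0.1) scale only Celsr2 and Celsr3 lay further apart among the paralogue pairs. The 0.1 added narrows the differences from Celsr3, at 0.18 and 0.08 TPM, so this rank depends on it. Together Prickle1 and Prickle2 reached 28.1 ± 0.643 TPM, near the 27.2 ± 0.205 TPM of the Vangl pair (SD, n = 2).

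Both Prickle genes have annotated starts that lie far apart. Prickle1-201 held 89.9% and 90.8% of the gene's TPM and Prickle1-202, which starts 76368 nt downstream and has the same coding length of 2496 nt, held 10.1% and 9.15%. Prickle2 was less concentrated. Prickle2-201, from the most upstream start, held 60.0% and 62.8%. Prickle2-202, which starts 224763 nt downstream, held 17.0% and 24.4%, and Prickle2-203, which starts 171294 nt downstream, held 23.1% and 12.8%, so that the order of these 2 transcripts was reversed between libraries. Prickle2-204, starting 138789 nt downstream, was assigned 0 counts in both, though its deposited posterior counts were 28.1 (posterior SD 25.4) and 54.2 (posterior SD 47.9), or 3.46% and 7.05% of the gene, so its use was not resolved from that of the other transcripts. The change of 10.3 percentage points for Prickle2-203 lay within the 95th percentile of 29.2 points for transcripts of like share in genes of 1 to 5 TPM, and that of 7.43 points for Prickle2-202 within its 95th percentile of 50.5 points.

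**Figure D2:**
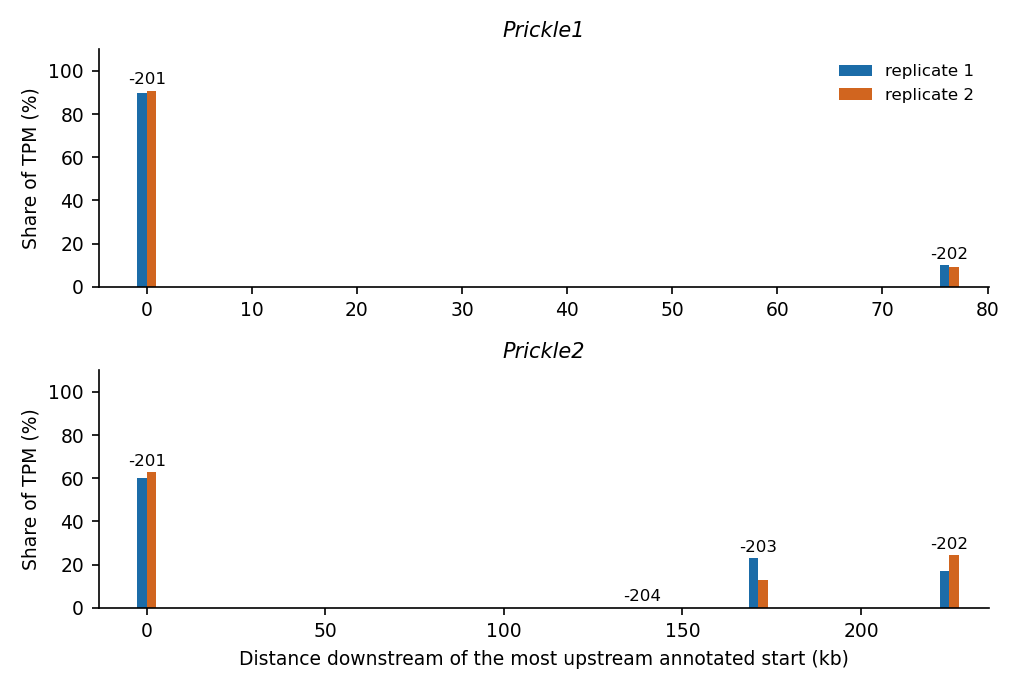
Share of the gene's TPM in percent (0 to 100) for each annotated transcript of Prickle1 (upper) and Prickle2 (lower), against the distance of its start in kb from the most upstream start; blue bars are replicate 1 and orange bars replicate 2. The most upstream transcript leads in both genes, with a mean of 90.4% for Prickle1 and 61.4% for Prickle2, and Prickle2-204 was assigned 0.

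The Prickle2-201 transcript codes for a longer protein than the downstream ones, 2703 against 2535 nt, since its opening exons hold coding bases that the others lack. The first 128 coding bases, from the opening 2 exons (within chr6:92705346-92706145, GRCm38, minus strand), are shown with the start codon in capitals.

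Prickle2-201 opening coding bases: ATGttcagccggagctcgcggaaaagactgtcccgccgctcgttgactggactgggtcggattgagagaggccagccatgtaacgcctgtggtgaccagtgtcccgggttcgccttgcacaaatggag

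The bases before each start are shown because the starts differ in CG content as well as in use. Each run is the 150 bases directly before the start, taking the more upstream of the GENCODE and RefSeq starts, which lie 0 to 29 nt apart. It is written in the direction of the gene and was read from the RefSeq promoter table for GRCm38.p6, with CG dinucleotides in capitals. The coordinates are chr15:93595903-93596052 and chr15:93519524-93519673 for Prickle1-201 and Prickle1-202, and chr6:92706185-92706334, chr6:92481393-92481542, chr6:92534862-92535011 and chr6:92567367-92567516 for Prickle2-201 to Prickle2-204.

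Prickle1-201: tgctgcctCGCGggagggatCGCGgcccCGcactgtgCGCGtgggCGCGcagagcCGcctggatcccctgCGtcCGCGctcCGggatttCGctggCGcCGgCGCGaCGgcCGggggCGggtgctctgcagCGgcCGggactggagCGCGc
Prickle1-202: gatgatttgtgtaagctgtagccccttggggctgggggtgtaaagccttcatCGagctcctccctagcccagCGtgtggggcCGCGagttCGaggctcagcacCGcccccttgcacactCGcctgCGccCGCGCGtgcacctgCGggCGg
Prickle2-201: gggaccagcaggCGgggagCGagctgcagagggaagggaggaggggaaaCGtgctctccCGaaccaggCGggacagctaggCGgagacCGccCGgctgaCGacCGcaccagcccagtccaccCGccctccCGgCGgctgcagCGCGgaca
Prickle2-202: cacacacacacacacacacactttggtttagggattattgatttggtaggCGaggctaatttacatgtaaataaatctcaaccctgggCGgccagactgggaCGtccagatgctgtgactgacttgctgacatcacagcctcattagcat
Prickle2-203: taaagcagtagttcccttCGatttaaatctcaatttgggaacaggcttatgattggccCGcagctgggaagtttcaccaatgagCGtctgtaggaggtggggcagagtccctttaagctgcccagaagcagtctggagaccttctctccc
Prickle2-204: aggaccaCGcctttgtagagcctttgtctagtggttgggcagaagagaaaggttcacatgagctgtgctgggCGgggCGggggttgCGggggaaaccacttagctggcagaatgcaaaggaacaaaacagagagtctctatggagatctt

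The leading start of each gene had the most CG dinucleotides in these 150 bases, 26 before Prickle1-201 and 15 before Prickle2-201. Prickle1-202 had 13, and the 3 downstream Prickle2 starts had 3, 3 and 4. Counting error and the loose assignment of shared exons limit this to a description of 6 starts. Over the 12 windows of 300 bases (250 before and 50 after a RefSeq start) that the table holds for 8 of the 10 genes, CG counts ran from 4 to 40 with a median of 21.5, beside a median of 7 over all 32851 windows. The motif GGGCGG, searched on both strands, was in 10 of the 12 windows, 83.3%, against 35.7% of all windows, and TATAAA, also on both strands, in 0 of 12 against 13.6%. Prickle1 and Prickle2 have several of these windows each, so the windows are not separate genes, and Vangl1 and Celsr1 have none. GGGCGG holds a CG, so its share is not separate from the CG counts. The set of all windows was taken without regard to expression. A match shows these letters only, and no binding was measured.

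Celsr1, Celsr2 and Celsr3 encode large adhesion-type cadherins that bridge neighbouring cells. Celsr2 (ENSMUSG00000068740, chromosome 3, 108390851 to 108415552, minus strand) was at 3.91 and 2.41 TPM, a mean of 3.16 ± 1.06 (SD, n = 2). Celsr1 (ENSMUSG00000016028, chromosome 15, 85898929 to 86033777, minus strand) was at 0.99 and 1.09 TPM, a mean of 1.04 ± 0.0707 (SD, n = 2), with 305 and 278 counts, so it lies at the detection line rather than below it. Celsr3 (ENSMUSG00000023473, chromosome 9, 108826320 to 108852969, plus strand) was at 0.18 and 0.08 TPM. Its 33 and 21 counts have 95% Poisson intervals of 22.7 to 46.3 and 13.0 to 32.1, which cover counting error only. The 3 genes together reached 4.33 ± 1.06 TPM (SD, n = 2), the lowest sum of the 5 families.

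The Celsr order was the same by each measure used here, while the size of the steps was not. On the log2(TPM + 0.1) scale, Celsr2 was 14.1-fold above Celsr3 and Celsr1 5.07-fold above Celsr3, both set apart (log2 differences of 3.82 and 2.34 against a yardstick of 1.89). Celsr3 lies near that pseudocount, and with a pseudocount of 1 these log2 differences were 1.86 and 0.85 against a yardstick of 0.34, still set apart. Celsr2 and Celsr1 were not, at a log2 difference of 1.48 ± 0.57 (SD, n = 2) against 1.82. By counts per kb of the longest transcript, an alternative chosen after seeing the data, Celsr2 stood 1.44-fold above Celsr1, still not set apart. The Celsr2 to Celsr3 fold was then 7.30. Both folds were taken after adding 0.1 to each value. On this scale Celsr3 was at 0.0703 in replicate 1 and 0.0563 in replicate 2, below the 0.1 added. The fold of 7.30 therefore understates the ratio of the values and cannot be set against 14.1. The level of Celsr3 is uncertain in another way, since the deposited bounds, 0.220 to 0.831 and 0.196 to 0.940 TPM, lie above its TPM in both libraries, and its posterior mean was 0.50 and 0.54 TPM. With posterior means Celsr1 and Celsr3 were no longer set apart and Celsr2 and Celsr1 were, at a log2 difference of 1.77 against 1.14. The bounds contained the TPM in both libraries for the other 9 genes.

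Celsr2 differed in opposite directions by TPM and by counts. Its TPM was 3.91 in replicate 1 and 2.41 in replicate 2, while its counts, 447 and 393, were slightly higher in replicate 2 after scaling, a log2 ratio of 0.13. The effective length the tables used was 4063 nt in replicate 1 and 6984 nt in replicate 2. That length is an average over the transcripts to which reads were assigned, weighted by their levels. The full-length Celsr2-201 held 26.2% of TPM in replicate 1 and 56.4% in replicate 2 (67.8% and 84.9% of counts), and its own level was 1.02 and 1.36 TPM. The 467-nt Celsr2-205 held 24.4% of TPM in replicate 1 from 9.90 counts and 0% in replicate 2. Celsr2-206, of 3486 nt, held 33.3% and 28.2%, so that a different transcript led in each library, which was the case for no other gene here. These differences of 30.2 and 24.4 percentage points also lay within the 95th percentiles, 50.5 and 29.2 points, for transcripts of like share in genes of 1 to 5 TPM.

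Ror2 and Ror1 encode receptor tyrosine kinases that bind Wnt5a. Ror2 (ENSMUSG00000021464, chromosome 13, 53109312 to 53286124, minus strand) was at 14.1 and 15.6 TPM, a mean of 14.9 ± 1.12 (SD, n = 2). Ror1 (ENSMUSG00000035305, chromosome 4, 100095791 to 100444765, plus strand) was at 9.96 and 9.48 TPM, a mean of 9.72 ± 0.339 (SD, n = 2). Ror2 was 1.52-fold higher, a log2 difference of 0.61 ± 0.16 (SD, n = 2) against a yardstick of 0.47, so the pair was set apart but by the smallest margin of the paralogue pairs that were.

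Ror2 has 2 coding transcripts that differ at the start. Ror2-201 held 77.5% and 75.2% of TPM, and Ror2-202, which starts 575 nt downstream, held 21.1% and 23.3%, a split that moved by 2.18 points for Ror2-202. The 2 opening exons join the same next exon, and the coding lengths are 2832 and 2796 nt. Their coding bases are shown because the opening exon is what separates the 2 proteins, with the start codon in capitals, from chr13:53285781-53285877 for Ror2-201 and chr13:53285466-53285526 for Ror2-202 (GRCm38, minus strand).

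Ror2-201: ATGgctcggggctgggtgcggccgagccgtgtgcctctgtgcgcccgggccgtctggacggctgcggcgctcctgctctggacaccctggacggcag
Ror2-202: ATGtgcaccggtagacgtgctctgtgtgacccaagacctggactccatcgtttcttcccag

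Reads could be placed on either transcript chiefly where they reach these exons, and the deposited posterior SD of counts was 97.0 and 93.1 for Ror2-202, beside 304 and 310 assigned counts. Ror1 has 1 transcript in the tables, so its level does not depend on such an assignment. It overlaps Gm12701 and Gm12706 in the genome but shares 0 exonic nt with either.

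Ptk7 encodes a receptor-like membrane protein that acts with the core genes and lacks kinase activity. It was the highest of the 10 genes (ENSMUSG00000023972, chromosome 17, 46564471 to 46629504, minus strand), at 47.5 TPM in replicate 1 and 37.0 TPM in replicate 2, a mean of 42.2 ± 7.42 (SD, n = 2). It stood above 83.5% of protein-coding genes. Its 5556 and 3595 counts fall on 1 transcript.

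In order of mean level, the genes ran Ptk7, Prickle1, Vangl2, Ror2, Ror1, Vangl1, Prickle2, Celsr2, Celsr1 and Celsr3. Of the 9 neighbouring pairs 5 were set apart. Ptk7 stood above Prickle1 (1.74-fold), Prickle1 above Vangl2 (1.30-fold), Ror2 above Ror1, Vangl1 above Prickle2 (2.09-fold) and Celsr1 above Celsr3. Vangl2 and Ror2, Ror1 and Vangl1, Prickle2 and Celsr2, and Celsr2 and Celsr1 did not differ beyond the spread between libraries. The step from Prickle1 to Vangl2 was narrow, a log2 difference of 0.38 against 0.36, and was no longer set apart without replicate 1, without the filter on low values or with posterior means. By counts per kb Prickle2 stood 2.23-fold above Celsr2 and was set apart. Of the 6 paralogue pairs 5 were set apart.

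The leading transcript was the same in both libraries for 9 of the 10 genes, and 3 of these have a single transcript in the tables. For Celsr3, Celsr3-201 and Celsr3-204 held 50.2% and 49.8% in replicate 1 and 100% and 0% in replicate 2, from 3.38 counts on Celsr3-204 and 0 counts.

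**Figure D3:**
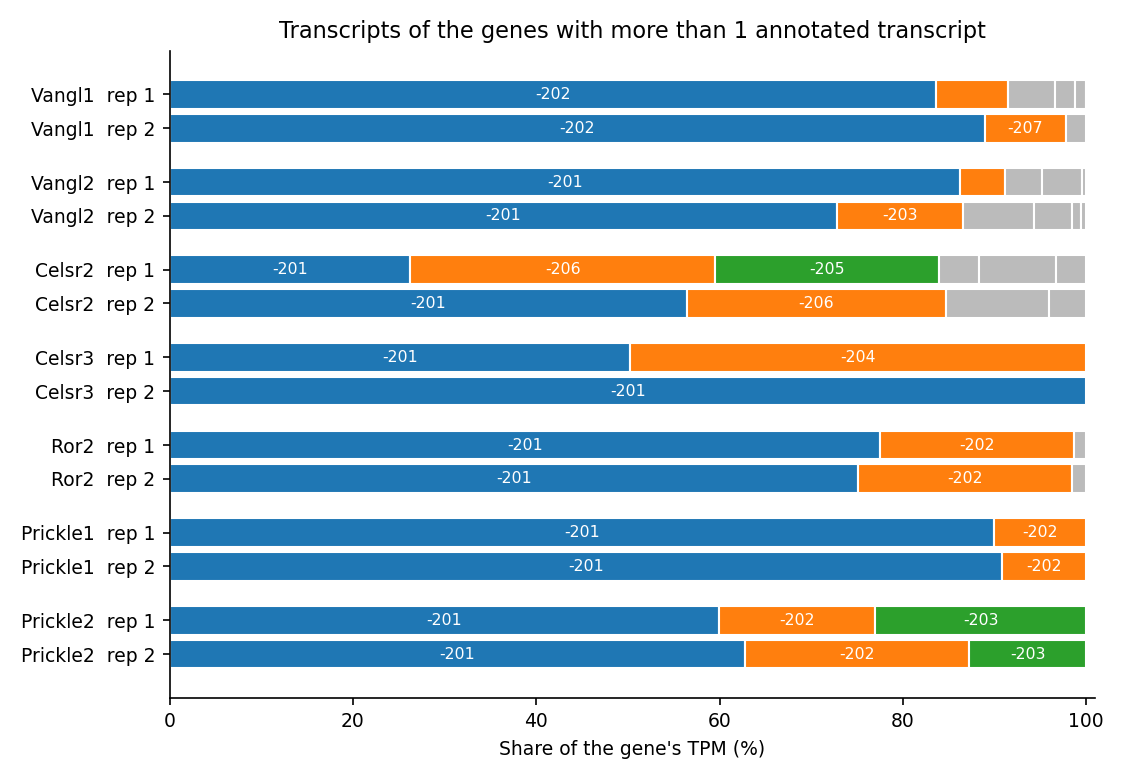
Share of each gene's TPM, in percent, held by its annotated transcripts in replicate 1 and replicate 2 for the 7 genes with several transcripts, with grey for transcripts of a mean share under 8% and the transcript number printed in segments of 8% or more. Prickle1, Ror2 and Vangl1 keep similar shares in both libraries, while Celsr2-201 goes from 26.2% to 56.4% and Celsr3 goes from 2 transcripts to 1.

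The 2 pools were compared gene by gene with an exact two-sided binomial test on counts. It compares 2 libraries, not conditions, and its p-values take no account of variation between pools beyond counting. Ratios are replicate 2 over replicate 1 after TMM scaling. A gene counted as past the test where the adjusted p was at most 0.05 and the pools differed by at least 1 on the log2 scale, which was so for 0 of the 10 genes and for 2.99% of the 16787 genes tested. With a filter of at least 100 counts over both libraries, which all members but Celsr3 meet, only 75 of 13491 genes were past it. At an adjusted p of at most 0.05 and any ratio, 2 of the 10 passed against 29.3% of all genes, and the same 2 had an unadjusted p of at most 0.05. The 10 genes split into 5 higher and 5 lower in replicate 2, with a median log2 ratio of 0.03 beside -0.01 over all genes tested.

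Ptk7 was 1 of the 2, with a log2 ratio of -0.31, lower in replicate 2 (exact binomial test, adjusted p = 4.22e-22). This was more than the 0.22 within which 95% of genes of like count level lay, and no other member went beyond that range. The other was Ror2, with a log2 ratio of 0.20 (exact test, adjusted p = 0.00196), within its range of 0.28. For Celsr3 the log2 ratio was -0.32, within a range of 1.54 at 33 and 21 counts. Scaling by spike-in totals instead moved the median of all genes to -0.59 and put all 10 genes lower in replicate 2, with 0 past the test.

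**Figure D4:**
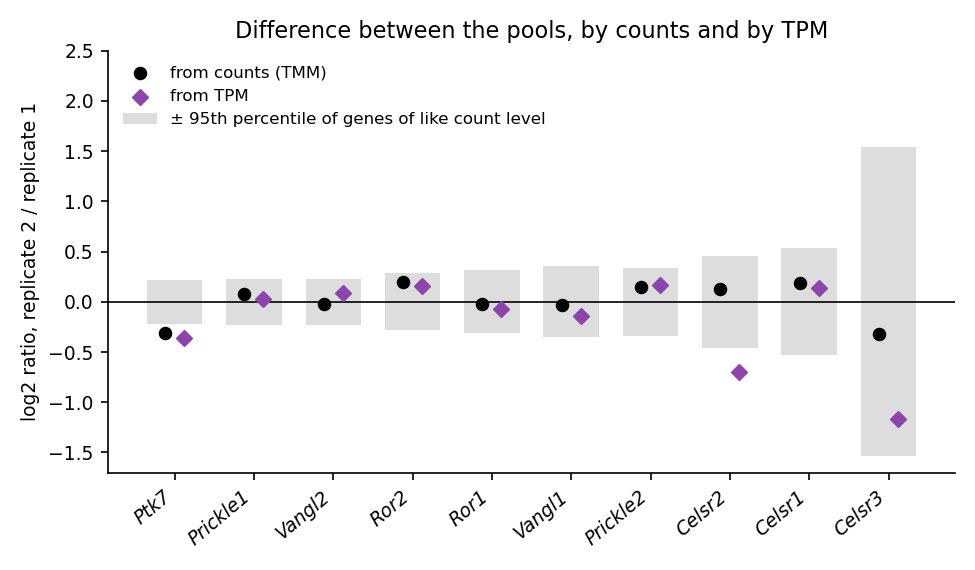
Log2 ratio of replicate 2 over replicate 1 for each gene, from TMM-scaled counts (black circles) and from TPM (purple diamonds), with grey bars for the range that holds 95% of genes of like count level. The bars come from count ratios and do not apply to the diamonds. For TPM, the yardstick at the level of Celsr2 was 0.94 on the log2(TPM + 0.1) scale. Ptk7 at -0.31 lies below its bar by counts, while Celsr2 is at 0.13 by counts and -0.70 by TPM.

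The other genes of the pathway, 37 by list, were set beside these 10. Of them 36 of 37 were detected and 0 of 37 passed the test between libraries in either direction, beside 56.3% of protein-coding genes detected and 2.99% of all genes past the test. At any ratio, 18 of 37 had an adjusted p of at most 0.05 by the exact test, against 29.3% of all genes. As this test holds counting error only, small ratios reach a low p more readily at high counts. No share over genes of like counts was taken for the partner genes, the members or the markers, so these shares cannot be compared directly. Their median was 15.6 TPM. Dchs2, an atypical cadherin, was not detected, at 0.14 and 0.23 TPM from 42.1 and 56.8 counts.

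Of the ligands, Wnt5a stood at 87.1 and 85.3 TPM, a mean of 86.2 ± 1.24 (SD, n = 2), and above Wnt11 at 16.1 ± 1.20 and Wnt5b at 11.9 ± 2.40 TPM. The receptors ran from Fzd2 at 44.0 ± 2.14 TPM, higher than every Ror, Vangl and Prickle gene, to Fzd6 at 4.82 ± 0.502 TPM. Cytoplasmic core genes ran from Dvl2, a Dishevelled adaptor, at 37.9 ± 0.792 TPM to Prickle4 at 1.74 ± 0.537 TPM, and 7 of 7 were detected. In the Fat-Dachsous branch, which sets polarity by a separate pair of cadherins, 4 of 5 were detected and Fat1 led at 33.8 ± 1.53 TPM. Effectors at the cilium ran from Fuz at 12.3 ± 1.03 to Intu at 4.56 ± 0.0707 TPM. The scaffold, trafficking and turnover genes ran from Gipc1 at 130.3 ± 13.3 to Smurf1 at 14.1 ± 0.537 TPM.

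**Figure D5:**
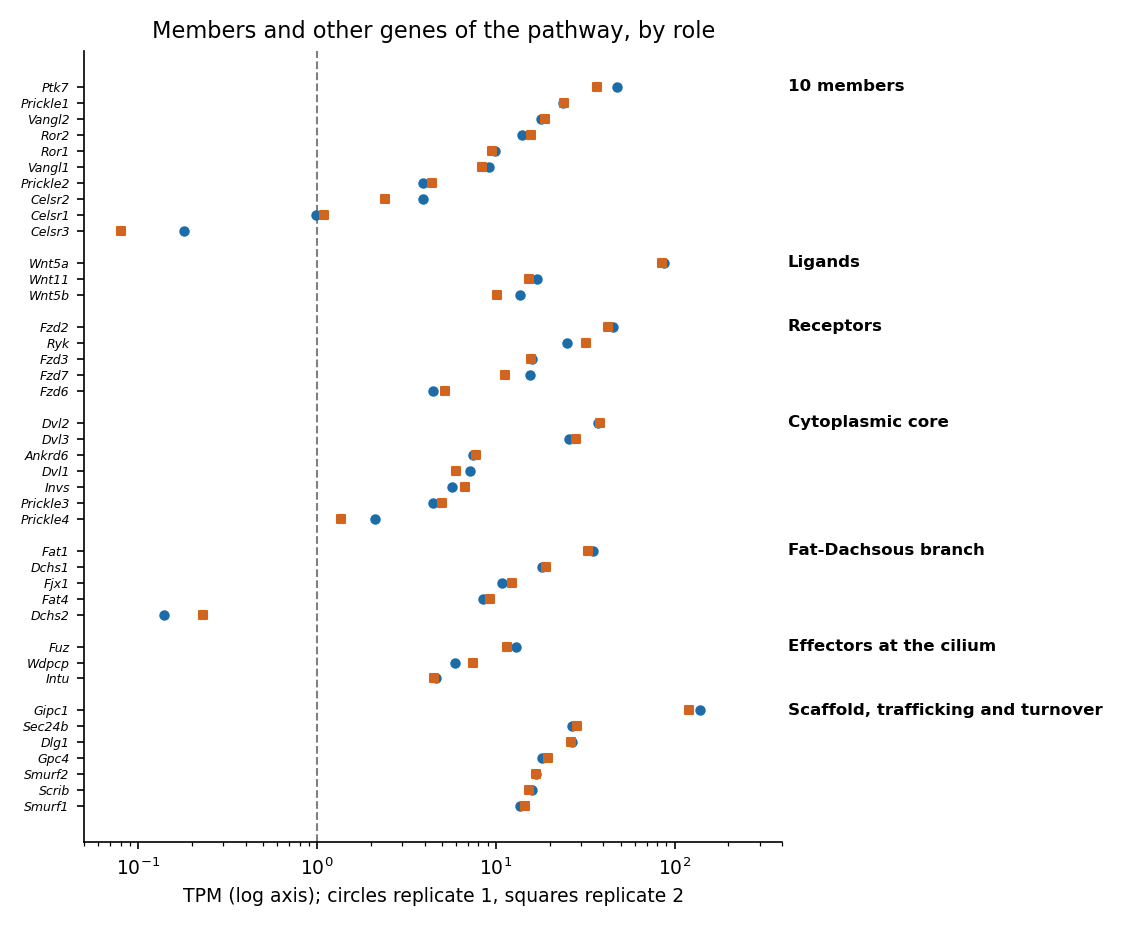
Levels in TPM (log axis) of the 10 genes and of other genes of the pathway grouped by role, with circles for replicate 1, squares for replicate 2 and a dashed line at 1 TPM. Dchs2, at 0.14 and 0.23 TPM, is the only one of the other genes drawn that lies below the line in both libraries.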

How the data were processed

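Total RNA of E11.5 mouse limb was measured in 2 libraries of 1 group, as the labels give it. The authors deposited gene and transcript tables, per the file headers quantified on mm10 with GENCODE M4; no source used here gives the aligner, tool versions or strand setting. The authors deposited expected counts (estimated, not normalised), TPM scaled to a fixed total with spike-ins included, FPKM, each transcript's share of its gene's TPM in percent, and posterior means with bounds of TPM, a signal for which no source used here gives the level. Without strand, reads of antisense partners cannot be told apart. Entries named only by a number (26248, with 6.29e-05% and 4.76e-05% of counts) and 97 spike-ins entered neither library sizes nor tests.

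Symbols and positions came from GENCODE M21 on GRCm38, the build of the files, which matched 42462 of 43346 gene IDs, and starts and sequences from that genome and RefSeq tables. Expected counts were rounded. Libraries were scaled by TMM (edgeR 4.0.16) to effective sizes of 40.4 M and 32.5 M, and genes with at least 20 counts over both were compared by the exact binomial test with Benjamini-Hochberg adjustment at 0.05, since 1 group allows no quasi-likelihood contrast. Log2 ratios used a prior count of 0.5, and levels a pseudocount of 0.1 TPM, or of 0.1 on the counts per kb scale. The yardstick for differences between genes came from 20 abundance bins over genes of at least 0.1 TPM. The biological coefficient of variation between the pools was 7.65% over 16118 genes. Alternatives were DESeq2 1.42.0 size factors, totals, spike-in totals, other filters, other pseudocounts, FPKM, TPM without spike-ins and posterior means. Of these steps only the exact binomial test was run on simulated data, with counting error alone and large planted changes. How it behaves with variation between pools was not tested.

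The members, gene lists, tests and alternatives were chosen with earlier results of these data known. Named are all 10 members, the highest and lowest partner gene of each role, both Wnt5 ligands and overlapping genes, with other genes named as markers. The values of 1 role group are not reported here, while the counts and median over the 37 partner genes include it. The labels call the pools biological replicates, and p-values measure only the difference between these 2 libraries.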

Additional observations from a re-analysis of the deposited data

How the results depend on the processing

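Over the alternatives, 8 to 9 members and 35 to 36 partner genes were detected. Set apart were 4 to 6 neighbouring pairs and 5 to 6 paralogue pairs, and 8 to 10 leading transcripts were shared. All stayed within 1.5 times the main count, a limit that most could not exceed, being near their highest possible value. An equal count can also hold different pairs. With posterior means 5 paralogue pairs were again set apart, but Celsr1 and Celsr2 took the place of Celsr1 and Celsr3. Under any scaling or filter tried, 0 members passed the between-library test. The number of all genes past that test was 502 of 16787, against 1400 of 16787 with spike-in totals and 75 of 13491 with at least 100 counts. With spike-in totals 5 log2 ratios changed sign, to -0.40 for Celsr1, -0.45 for Celsr2, -0.39 for Ror2, -0.51 for Prickle1 and -0.44 for Prickle2, while the median of all genes moved to -0.59. Spike-ins took 5.37% of counts in replicate 1 and 7.92% in replicate 2. The cause was not tested. No paired analysis was possible because the labels give 1 group. Depth limits Celsr3 most, at 33 and 21 counts, and with 2 libraries an SD is itself imprecise.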
